A study of Arabidopsis thaliana with 4 samples.

Results

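The cytosolic ribosomal protein genes of *A. thaliana* were examined in Col0 seedlings, roots and shoots together, that shared a divided Petri dish with *Erwinia amylovora* and so were exposed to its volatiles (mVOCs), or grew as controls. The seedlings were 7 days old and the exposure lasted 16 h. Each of 4 two-colour Agilent arrays compared 1 control sample, labelled with Cy3, and 1 exposed sample, labelled with Cy5. The genes were taken by locus: 56 listed RPL and RPS loci, with 101 probes, of 29030 loci and 43603 probes on the array. RefSeq names 27 of these loci, and the other 29 are given by locus only. Each value is the log2 ratio of exposed over control after loess normalization of the array, which removes the dependence of the ratio on spot brightness, as the mean over the probes of a locus. The dyes were not swapped, so the effect of exposure and that of the dye cannot be told apart. In whole seedlings, fewer cells of a type and less RNA per cell cannot be told apart either.

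The cytosolic ribosome translates the mRNAs made in the nucleus. Its large subunit forms peptide bonds and its small subunit reads the mRNA. In plants most of its proteins are encoded by several paralogous genes, and their mRNAs are among the most abundant of growing tissue. Ribosomal protein mutants of *A. thaliana* often have altered leaf shape or arrest as embryos, and TOR, a protein kinase that responds to nutrients, acts on ribosomal protein S6 through S6 kinase.

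The arrays gave a median spot intensity from 344.5 to 413 in the control channel and from 394 to 460 in the exposed channel. Between 74.2% and 78.8% of spots were well above background, and no spot was saturated. In the Cy3 channel of replicate 4 the local background of single spots reached 59573, against at most 69 on the other arrays. Replicates 1 and 2 were on 1 slide and replicates 3 and 4 on another. Of the 56 genes, 55 were well above background in all 8 readings. The exception was AT3G51190, which was not well above background in either channel on any array, so no fold is given for it.

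The ribosomal protein genes differed little between exposed and control seedlings. With loess, 1 of 56 (1.79%) was higher in exposed seedlings and 7 (12.5%) were lower at an adjusted p below 0.05, against 9.33% and 7.96% of all loci. The median log2 ratio of the 56 genes was -0.0096, against 0.0029 over all loci, with 24 positive and 32 negative values. The lowest was -0.23, for RP1, and the highest 0.19, for AT3G52580. The values of the 56 genes lay closer together than those of all loci, with an SD across genes of 0.083 against 0.12. The SD of the 62 other cytosolic ribosomal protein genes was 0.096. The 56 genes were also brighter than all loci, with median log2 intensities of 13.85 and 9.05. On all 4 arrays, 6 of the 56 genes were positive and 14 negative, against 6228 and 5642 of 29030 loci. The direction of these changes depends on the normalization: with each array centred on its median, without loess, 40 genes were called higher and 1 lower, against 20.7% and 21.3% of all loci, and their median was 0.26. The 1 gene called lower there was AT3G51190, which was not above background.

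**Figure D1:**
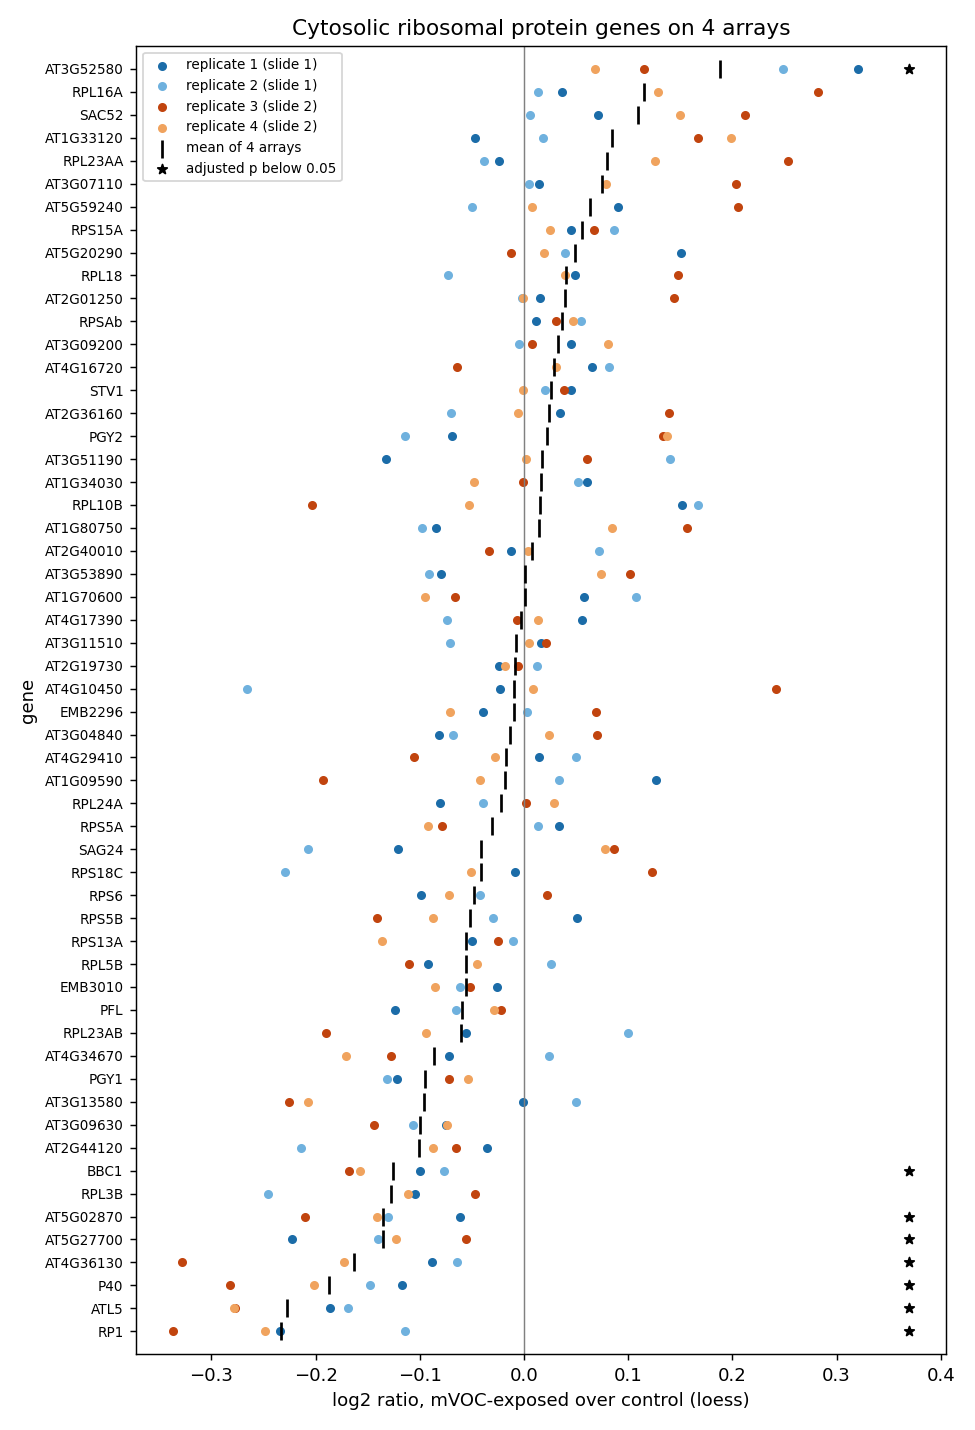
Log2 ratio of exposed over control after loess (x axis) of the 56 cytosolic ribosomal protein genes (y axis, ordered by their mean), with 1 point per array, a bar at the mean of 4 arrays and a star at the 8 genes with a limma adjusted p below 0.05. The means run from -0.23 (RP1) to 0.19 (AT3G52580); with median centring the 7 lower genes with a star had positive values.

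Of the large subunit genes that RefSeq names, RP1, ATL5 and BBC1 were lower in exposed seedlings with loess. RP1 (RPL3A, AT1G43170) encodes a protein that in yeast lies in the core of the subunit near the peptidyl transferase centre. Its log2 ratios were -0.23, -0.11, -0.34 and -0.25 on replicates 1 to 4. It was negative on all 4 arrays, and its normalized log2 intensity ran from 14.59 to 14.72 in control samples and from 14.25 to 14.58 in exposed samples, with no overlap. RP1 fell by 14.9% (log2 ratio -0.23, SE 0.043, n = 4 arrays, limma adjusted p = 0.0061), but had a log2 ratio of 0.12 with median centring (adjusted p = 0.21).

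ATL5 (RPL5, AT3G25520) encodes the protein that binds 5S rRNA and carries it into the large subunit. Its log2 ratios were -0.19, -0.17, -0.28 and -0.28 on replicates 1 to 4. All 4 were negative, and the exposed samples (14.64 to 14.82) overlapped slightly with the control samples (14.81 to 15.01) in normalized log2 intensity. ATL5 fell by 14.6% (log2 ratio -0.23, SE 0.039, n = 4 arrays, limma adjusted p = 0.0041), but was at 0.15 with median centring (adjusted p = 0.11). RP1 and ATL5 were called with loess whichever array was left out, with adjusted p of at most 0.033 and 0.029.

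BBC1 (RPL13, AT3G49010), also of the large subunit, had log2 ratios of -0.10, -0.077, -0.17 and -0.16 on replicates 1 to 4. All were negative, with the values of slide 2 lower than those of slide 1. Its mean was -0.13 (SE 0.038, limma adjusted p = 0.044), and 0.19 with median centring (adjusted p = 0.043). The loess call of BBC1 was lost whichever array was left out, with adjusted p from 0.059 to 0.17. Its 3 probes ran from -0.26 to -0.016, and 1 of them was called when probes were tested singly.

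Over the 17 named large subunit genes, 3 (17.6%) were called lower and none (0) higher with limma after loess, against 7.96% and 9.33% of all loci. Of the 17, 7 had an unadjusted p below 0.05, and the median was -0.022. Over all loci 31.8% had an unadjusted p below 0.05. With median centring 12 of the 17 were called higher and 0 lower, against 20.7% and 21.3% of all loci. The highest values of the group were those of RPL16A (0.12, adjusted p = 0.13) and SAC52 (0.11, adjusted p = 0.11). RPL16A had log2 ratios of 0.036, 0.014, 0.28 and 0.13 on replicates 1 to 4, all positive and higher on slide 2. EMB2296 (RPL8A), known from embryo-defective mutants, was at -0.0096, and the leaf-shape genes PGY1 (RPL10aB) and PGY2 (RPL9C) were at -0.095 (adjusted p = 0.11) and 0.022 (adjusted p = 0.81).

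Of the 10 named small subunit genes, 1 (10%) was called lower and 0 higher with loess, against 7.96% and 9.33% of all loci. P40 (RPSaA, AT1G72370) encodes protein Sa of this subunit. Its log2 ratios were -0.12, -0.15, -0.28 and -0.20 on replicates 1 to 4. All 4 were negative, lower on slide 2, and exposed samples (14.34 to 14.48 in normalized log2 intensity) overlapped slightly with control samples (14.47 to 14.63). P40 fell by 12.2% (log2 ratio -0.19, SE 0.041, n = 4 arrays, limma adjusted p = 0.012), but was at 0.16 with median centring (adjusted p = 0.085). Without replicate 4 its adjusted p with loess was 0.057. The median of the 10 small subunit genes was -0.050. With median centring 9 of them were called higher and 0 lower, against 20.7% and 21.3% of all loci. RPS6 and EMB3010, the genes of S6, were at -0.048 and -0.056 (adjusted p = 0.43 and 0.32), and RPS15A had the highest value of the group, at 0.056 (adjusted p = 0.32).

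Among the 29 loci without a name in RefSeq, 3 were called lower and 1 higher with loess, against 7.96% and 9.33% of all loci. AT4G36130 had log2 ratios of -0.088, -0.064, -0.33 and -0.17 on replicates 1 to 4, with slide 2 lower than slide 1 (mean -0.16, SE 0.048, limma adjusted p = 0.042). AT5G27700 had -0.22, -0.14, -0.055 and -0.12 (mean -0.14, SE 0.040, adjusted p = 0.043). AT5G02870 had -0.061, -0.13, -0.21 and -0.14 (mean -0.14, SE 0.039, adjusted p = 0.039). AT5G02870 lost its call whichever array was left out. AT4G36130 kept it only without replicate 2 (adjusted p up to 0.13) and AT5G27700 only without replicate 3 (up to 0.19), and the single probe of AT5G27700 had an adjusted p of 0.052 when probes were tested. All 3 were negative on every array with loess and positive with median centring, at 0.085, 0.14 and 0.30, the last with an adjusted p of 0.0018.

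AT3G52580 was the 1 member called higher. Its log2 ratios were 0.32, 0.25, 0.12 and 0.068 on replicates 1 to 4, higher on slide 1 than on slide 2. Its normalized log2 intensity was 7.98 to 8.14 in control samples and 8.16 to 8.39 in exposed samples, with no overlap, and it was among the dimmest of the 56 genes. AT3G52580 rose by 13.9% (log2 ratio 0.19, SE 0.047, n = 4 arrays, limma adjusted p = 0.023) and stayed positive with median centring, at 0.14 (adjusted p = 0.13). When arrays were left out singly its adjusted p ran from 0.030 to 0.12.

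Paralogues of one protein were compared by the difference between their log2 ratios on each array. RefSeq names at least a pair of paralogues for 9 proteins, which gave 11 pairs. The 4 arrays allow no exact two-sided permutation p below 0.13, so no pair could pass the threshold, and after Benjamini-Hochberg adjustment over the 11 pairs the lowest p was 0.46. For 3 pairs the difference had 1 direction on all 4 arrays.

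P40 lay below RPSAb, the other gene of protein Sa, on all 4 arrays, by -0.13, -0.20, -0.31 and -0.25 on replicates 1 to 4 (mean -0.22 ± 0.078, SD, exact p = 0.13). RPSAb itself was near 0, at 0.036 (adjusted p = 0.53). ATL5 lay below RPL5B on all 4 arrays as well, by -0.093, -0.19, -0.17 and -0.23 (mean -0.17 ± 0.059, SD, exact p = 0.13). In both pairs the lower gene had the brighter spots, and with median centring the differences were -0.033 and -0.034.

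RPL10, which in yeast joins the large subunit late in its assembly, is encoded by SAC52, RPL10B and SAG24. SAC52, known from a mutation that suppresses the dwarf *acaulis5* phenotype, had log2 ratios of 0.071, 0.0059, 0.21 and 0.15 on replicates 1 to 4, and SAG24, a senescence-associated gene by its name, had -0.12, -0.21, 0.086 and 0.078. SAC52 lay above SAG24 on every array, by 0.19, 0.21, 0.13 and 0.072 (mean 0.15 ± 0.064, SD, exact p = 0.13). These 2 genes had nearly the same spot brightness (14.81 and 14.83 on the log2 scale), and their difference was also 0.15 with median centring. The 2 probes of SAC52 were unequal, at 0.0096 and 0.21. RPL10B had 0.15, 0.17, -0.20 and -0.052, so it lay above SAG24 on slide 1 and below it on slide 2.

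RPL23AA and RPL23AB encode RPL23a, which in yeast lies at the exit of the peptide tunnel. RPL23AA had log2 ratios of -0.024, -0.039, 0.25 and 0.13 on replicates 1 to 4, and RPL23AB had -0.056, 0.10, -0.19 and -0.094. Their difference was positive on 3 of 4 arrays (mean 0.14 ± 0.25, SD, exact p = 0.375), which is within the spread between arrays. The differences within the other proteins were smaller: -0.11 for RP1 minus RPL3B, -0.048 for RPL24A minus STV1, 0.021 for RPS5A minus RPS5B, -0.019 for PFL minus RPS18C and 0.0082 for RPS6 minus EMB3010, and none of these 5 had the same sign on all 4 arrays. STV1 (RPL24B) is known for its part in translation reinitiation after upstream reading frames, and PFL (RPS18A) for the pointed first leaves of its mutant.

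**Figure D2:**
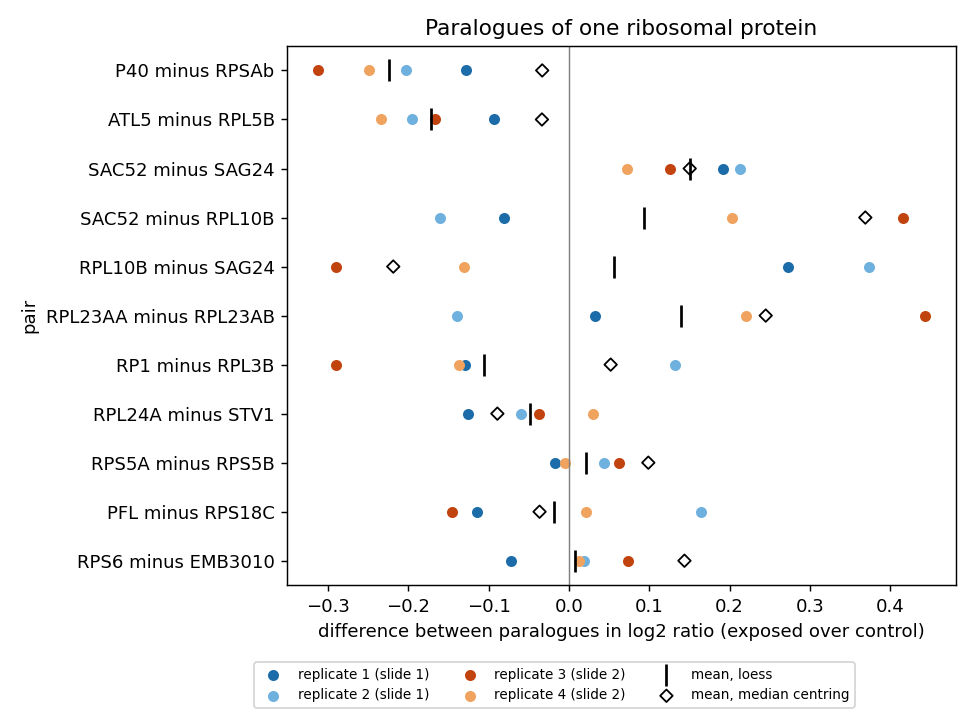
Difference between the log2 ratios (exposed over control) of 2 paralogues (x axis) for the 11 pairs of 9 ribosomal proteins (y axis), with a point per array, a bar at the mean after loess and a diamond at the mean after median centring. P40 minus RPSAb and ATL5 minus RPL5B moved from -0.22 and -0.17 to -0.033 and -0.034 with median centring, while SAC52 minus SAG24 kept its value of 0.15.

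The pattern over the 56 genes was shared within slides more than between them. Over the 56 genes the log2 ratios of replicates 1 and 2 correlated with r = 0.58 and those of replicates 3 and 4 with r = 0.83, whereas the r of arrays on different slides lay between -0.0051 and 0.40. Over all loci the corresponding values were 0.64, 0.71 and 0.46 to 0.57. Genes on 1 array share its labelling and hybridization, so these values are a description. The slide means had opposite signs for 25 of 56 genes (44.6%), against 33.5% of all loci. In a limma test of the difference between slides, 14 genes (25%) had an unadjusted p below 0.05, against 12.7% of all loci, and 0 had an adjusted p below 0.05. PGY2 was an example, with log2 ratios of -0.070 and -0.11 on slide 1 and of 0.13 and 0.14 on slide 2. SAG24 and RPL23AA were likewise lower on slide 1, whereas RPL10B and AT1G70600 were higher there. With slide as a fixed block, 1 gene was higher and 8 lower, and with slide as a random block 1 and 5. Over all loci these fits called 3658 higher and 3031 lower, and 2380 and 2049.

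Probes of 1 gene did not always give the same ratio. For 32 genes there were several probes, and for 17 of these the probes differed in sign, with a median range of 0.10 between the probes of a gene. Tested singly, 5 of the 101 probes were called higher and 11 lower, against 9.62% and 8.58% of all probes. AT3G11510 had called probes of both signs, at -0.20 and 0.18 (adjusted p = 0.0091 and 0.033), so its mean of -0.0072 stands for neither. RPL18 had probes from -0.033 to 0.18 and AT4G17390 from -0.17 to 0.083, with 1 called probe each. Both probes of RP1 (-0.27 and -0.20) and both of P40 (-0.22 and -0.16) were called lower. Paralogous mRNAs are alike, and how far a probe also reads the paralogue was not tested.

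Ribosomal protein genes gave some of the brightest spots. Of the 56 genes, 44 were at or above the 90th percentile of locus brightness, and their median brightness was 13.85, against 9.05 for all loci (mean log2 intensity of both dyes). Before normalization the ratio was higher at greater brightness for loci in general. Among loci with a brightness from 12 to 14, the median log2 ratio before normalization was 0.36 for other loci and 0.37 for the 19 ribosomal protein genes. From 14 upwards it was 0.51 for 634 other loci and 0.48 for 27 ribosomal protein genes. After loess the medians of these 27 genes and of the other loci were -0.019 and 0.00042. The higher values of the ribosomal protein genes with median centring were thus also seen in other loci of the same brightness. Loess takes out any dependence on brightness, whether it comes from the dyes, the RNA or the background correction. These cannot be told apart here. In the Cy3 channel of replicate 4, the background fit had an SD of 423 with all spots. It was 0.97 without 197 spots of non-uniform background. With median centring the medians of the 56 genes were 0.15, 0.19, 0.21 and 0.51 on replicates 1 to 4. With spots of non-uniform background left out, the median was 0.20 instead of 0.26. With loess and these spots left out, 1 of the 56 genes was called higher and 5 lower, of 3403 and 3175 loci. Their median was then -0.0050. That run changed the fit and also dropped the spots themselves, so the part of the fit alone was not tested. A loess curve fitted without ribosomal protein genes gave the same counts as the curve fitted with them, 1 higher and 7 lower.

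**Figure D3:**
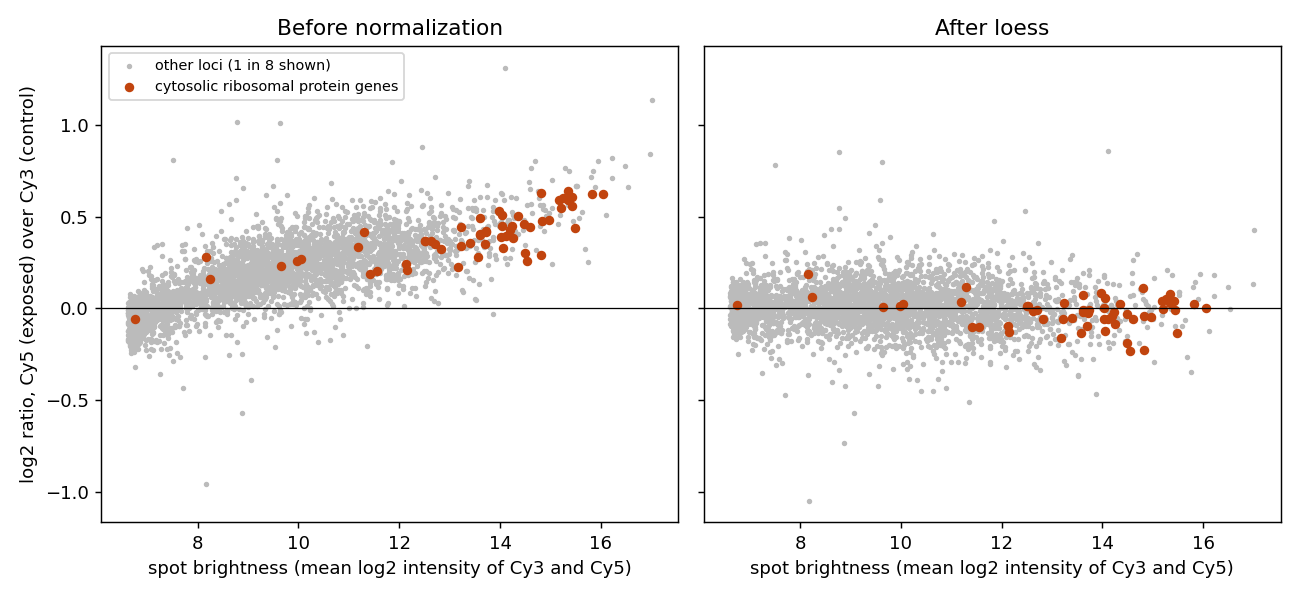
Mean log2 ratio of Cy5 (exposed) over Cy3 (control) on 4 arrays (y axis) against spot brightness (x axis, mean log2 intensity of both dyes), before normalization (left) and after loess (right), for the 56 ribosomal protein genes (red) and 1 in 8 of the other loci (grey). Before normalization the ratio was higher at greater brightness in both sets, with medians of 0.48 and 0.51 from a brightness of 14 upwards; after loess they were -0.019 and 0.00042.

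The other genes of the ribosome and of translation are given with loess unless stated. Over all loci, with 4 arrays, 9.33% were called higher and 7.96% lower, and 31.8% had an unadjusted p below 0.05. With median centring 20.7% of all loci were called higher and 21.3% lower. Of 62 other cytosolic ribosomal protein genes, 3 were called higher and 9 lower, with a median of -0.034. With median centring 40 were higher and 1 lower. With loess, leaving out 1 array gave 1 lower without replicate 1, 9 without replicate 2, 3 without replicate 3 and 2 without replicate 4. Of all loci, 1179, 1737, 1479 and 1517 were then called lower. The lowest call was AT1G48830, at -0.24 (adjusted p = 0.010; 0.10 with median centring). The highest call measured in both groups was AT5G39850, at 0.18 (adjusted p = 0.0091; 0.30 with median centring). AT5G63070, also called higher, was not well above background in any control sample, so its value is not given. Of 13 plastid ribosomal protein genes, whose ribosome translates chloroplast mRNAs, 2 were called higher and 0 lower, and 6 had an unadjusted p below 0.05. With median centring 12 were higher and 0 lower. Without replicate 4 the loess count was 1 higher, of 1649 loci called higher.

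Of 29 genes of ribosome biogenesis, 3 were called lower and 0 higher, against 13 higher and 0 lower with median centring. With loess, 1 was called lower without replicate 2 or replicate 4, of 1737 and 1517 loci called lower. The lowest was AT2G40360, at -0.18 (adjusted p = 0.019; -0.022 with median centring), and the other 2 were the nucleolins NUC-L1 (-0.16) and NUC-L2 (-0.17). Of 21 translation factors, 6 were called lower and 0 higher, with a median of -0.093. With median centring 9 were higher and 1 lower, with a median of 0.13. With loess, leaving out 1 array gave 1 lower without replicate 1, 7 without replicate 2, 3 without replicate 3 and 1 without replicate 4. Of all loci, 1179, 1737, 1479 and 1517 were then called lower. PAB4, a poly(A)-binding protein, had the lowest value, at -0.38 (adjusted p = 0.00069), and was lower with median centring as well, at -0.21 (adjusted p = 0.028). Of 9 genes of TOR and its regulators, LST8-1, a partner of TOR, was called higher (0.18, adjusted p = 0.021; 0.39 with median centring), and S6K2, an S6 kinase, was called lower (-0.15, adjusted p = 0.039; -0.0086 with median centring).

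Markers of organs were called in both directions. Over all loci 9.33% were called higher and 7.96% lower with loess. Summed over 8 shoot markers, the normalized intensity was 610692 to 650789 in control samples and 762986 to 796435 in exposed samples, most of it from RBCS1A (28.7%), RBCS1B (26.5%) and CAB3 (18.4%). Of these 8, 4 were called higher and 1 lower with loess: RBCS1A, a Rubisco small subunit gene, was at 0.48 (adjusted p = 0.00022), and LHCB2.1, of the light-harvesting complex, at -0.28 (adjusted p = 0.0046). The sum of 8 root markers was 63539 to 68577 in control samples and 61039 to 62142 in exposed samples, and 1 was called higher and 3 lower. PYK10 made up 77.2% of this sum, and it was at -0.095 with loess (adjusted p = 0.11) and at 0.35 with median centring (adjusted p = 0.00020). EXPA7, a root hair expansin, was at -0.57 (adjusted p = 0.00018) and AT5G19890 at 0.48 (adjusted p = 0.0084). RBCS1A, LHCB2.1, EXPA7 and AT5G19890 had the same direction with median centring. Their brightness was 17.60, 8.31, 10.60 and 7.76 (mean log2 intensity of both dyes), so LHCB2.1 and AT5G19890 were dim. The log2 ratios of AT5G19890 were 0.52, 0.37, 0.90 and 0.11 on replicates 1 to 4. Of 8 markers of dividing cells, 0 were called with limma and 3 had an unadjusted p below 0.05, against 31.8% of all loci. With median centring 4 of the 8 were called higher, against 20.7% of all loci. The sum of the 8 was 10873 to 11209 in control and 11407 to 11800 in exposed samples. All 24 markers were well above background in every reading. The part of shoot, root and dividing cells in the values of the ribosomal protein genes was not tested.

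**Figure D4:**
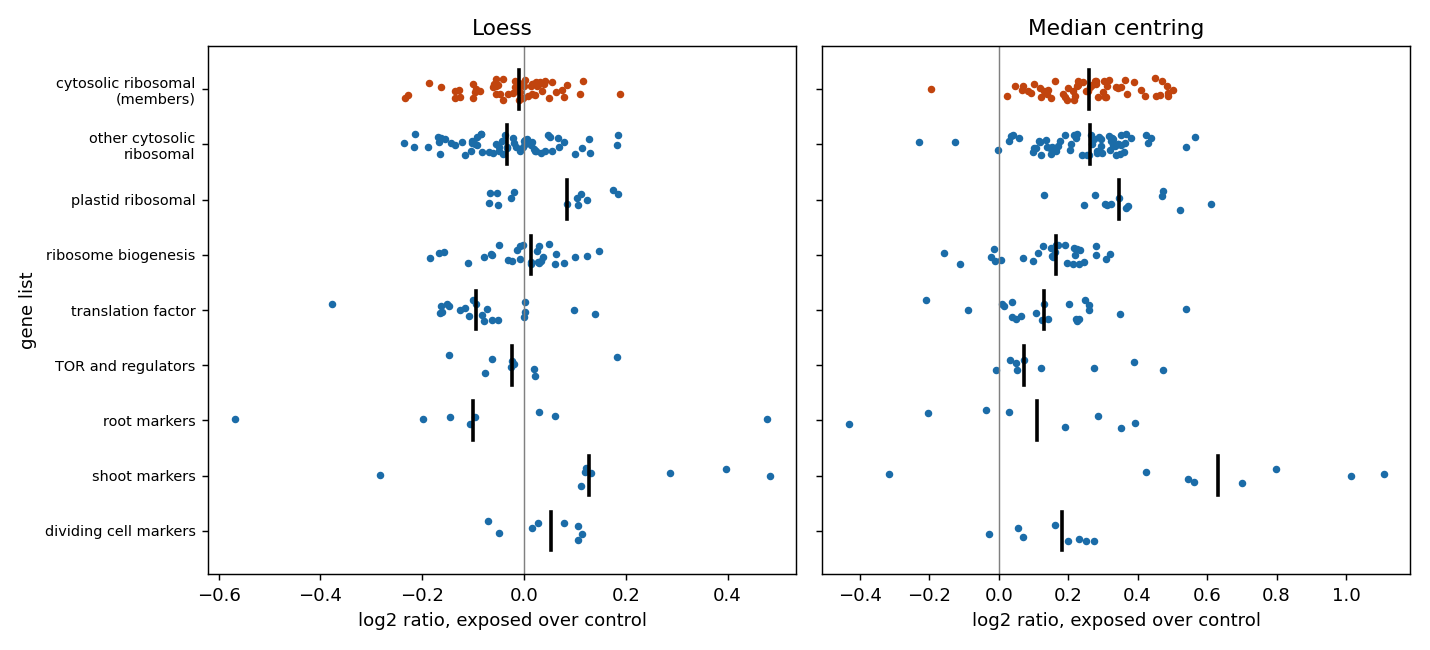
Log2 ratio of exposed over control (x axis) of the genes of 9 lists (y axis, points spread vertically so that they can be seen), after loess (left) and median centring (right), with a bar at the median of each list. The median of the 56 ribosomal protein genes (red) was -0.0096 after loess and 0.26 after median centring, and that of the 62 other cytosolic ribosomal protein genes -0.034 and 0.26.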

How the data were processed

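Gene expression was measured on 4 arrays of whole Col0 seedlings. The authors deposited scanner output from Agilent Feature Extraction 11.5.1.1, which holds spot and background median intensity values on a linear scale, not normalized, and the software's log10 ratio of Cy5 over Cy3. They also deposited a table of log10 ratios for replicates 2 to 4. Its replicate 1 column was deposited as the scanner's error score of the ratio and was not used. The paper names limma, background subtraction and lowess. Groups came from the agent labels; 1 label of all samples, describing stem cells, goes against every other label and was not used; the same field calls the samples biological replicates. No label names separate cultures, so p-values measure the spread between these samples. The RNA amount differs between the methods (500 ng) and the labels (10 µg).

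Median intensities were corrected by normexp (offset 50) and loess in R 4.3.3 with limma 3.58.1. Control and outlier spots were left out, spots were averaged per probe and probes per locus. Channel intensities were taken after loess and Aquantile. The mean log2 ratio of each of 29030 loci was tested against 0 with eBayes, with Benjamini-Hochberg adjustment over all. The steps were tested on simulated data. Paralogues were compared by an exact sign-flip permutation over 4 arrays. RefSeq (assembly TAIR10.1) gave names; it holds 28595 of the loci, and 5190 probes have no locus. No coordinates were used, and the number of arrays limits the precision. The 2 samples of an array are paired by it: their deviations from the group means correlated with r from 0.25 to 0.51, against at most 0.11 across arrays.

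Genes given singly were those called with 1 sign on all arrays, the paralogues of the 4 proteins with the widest range, genes not above background, and the highest and lowest call of each other list, of which 1 is not reported here, and 1 not above background in control samples gave way to the next; further genes were named after their values were seen. The members and lists were chosen with earlier results of these data known. There were 18 alternatives, and 2 more, both of median centring, were added after the data had been seen.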

Additional observations from a re-analysis of the deposited data

Results flagged for a closer look

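One array stood apart from the others for 1 of the 56 ribosomal protein genes. AT2G01250 had a log2 ratio of 0.144 on replicate 3, against 0.015, -0.0020 and -0.00093 on replicates 1, 2 and 4, a gap larger than Dixon's critical value for 4 values. Chance alone marks about 1 in 20 groups of 4 in this way.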

How the results depend on the processing

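The median of the 56 genes was negative under every alternative run without median centring and positive with it. With each array centred on its median, 40 genes were called higher and 1 lower, of 5999 and 6178 loci, with a median of 0.26. Then RP1 was at 0.12, ATL5 at 0.15, P40 at 0.16, AT4G36130 at 0.085, AT5G27700 at 0.14, AT5G02870 at 0.30, BBC1 at 0.19, RPL5B at 0.18, SAG24 at 0.34 and RPL23AB at 0.26. With median centring and spots of non-uniform background left out, the counts were 41 and 1, of 7904 and 7526 loci, the median was 0.20, and these 10 genes were at 0.052, 0.081, 0.094, 0.018, 0.072, 0.23, 0.12, 0.12, 0.27 and 0.19. With median centring and without replicate 4, the counts were 33 and 0, of 5296 and 4293 loci, the median was 0.18, and the genes were at 0.037, 0.078, 0.077, 0.0050, 0.050, 0.21, 0.11, 0.10, 0.21 and 0.18. With loess, plain background subtraction gave 1 gene lower, of 1402 loci higher and 922 lower, and normexp without an offset 0 genes higher and 0 lower, of 0 and 1 loci. An ordinary test gave 0 and 0 genes, of 4 and 13 loci. Without pairing by array (no replicate block), 0 genes were higher and 3 lower, of 1476 and 1192 loci. With each probe tested, 5 genes had a probe called higher and 9 a probe called lower. The ratio of the scanner software gave 2 higher and 16 lower, of 4428 and 4446 loci, and a median of -0.047, with RPL10B at -0.031, RPL23AA at -0.065 and RPL23AB at 0.047. The deposited table gave a median of -0.045, with RPL5B at 0.00055, SAC52 at -0.0018, RPL10B at -0.035, RPL23AA at -0.056 and RPL23AB at 0.048. With loess and spots of non-uniform background left out, 1 gene was higher and 5 lower, of 3403 and 3175 loci, and RPL10B was at -0.00011. On slide 1 alone RPL23AA was at -0.031 and RPL23AB at 0.022, and on slide 2 alone RPL10B was at -0.13 and SAG24 at 0.082. Leaving out each array gave 0 to 1 genes higher and 2 to 4 lower, the lowest count of lower genes without replicate 4, of 1373 to 2139 loci higher and 1179 to 1737 lower. RPL10B ranged from -0.035 to 0.089 and SAG24 from -0.083 to 0.014. The causes of these differences were not tested. The number of arrays, without a dye swap, limits what can be told of differences of this size.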
